A study of Mus musculus with 9 samples.

Results

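The 3 mature miRNAs miR-122-5p (MIMAT0000246), miR-192-5p (MIMAT0000517) and miR-194-5p (MIMAT0000224) were followed through 9 small RNA libraries of mouse serum. They were picked from a total of 876 mature miRNAs with a count in any library. The members were chosen by their miRBase identifiers as miRNAs known from the liver, and their counts in these same libraries were known when the choice was made. Their values in these libraries are therefore given as a description. Nothing is read from whether a member passed the test applied to all miRNAs. The serum came from healthy male and female 129/SVj mice, aged 2 to 9 months. The labels name 3 serum pools (A, B and C), whereas the study's methods describe aliquots of a pool made from 3 mice, so the spread between libraries of a group may be technical only. RNA of each pool was split into an untreated control fraction, a fraction from which abundant 5′ tRNA fragments were captured with biotinylated DNA probes on streptavidin beads, and a fraction in which such probes directed RNase H, which cuts the RNA strand of a DNA/RNA duplex, to these fragments. Each group thus held 3 libraries, and the comparisons ask whether a depletion protocol kept the relative levels of these miRNAs.

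A miRNA lowers the output of its target messenger RNAs and finds them mainly through its seed, bases 2 to 8 from the 5′ end. miR-122 is the dominant miRNA of hepatocytes and is known in blood as a sign of liver injury. miR-192 and miR-194 are abundant in liver and also in the epithelium of gut and kidney, so their presence in serum does not name the liver as the source. In serum, the number of cells that released a miRNA and the amount each released cannot be told apart. A library here is described by the share of its miRNA counts that a miRNA held, because the number of miRNA counts differed widely: it was 205185 to 330676 in control, 1822088 to 1995956 with beads and 1199 to 2040 with RNase H.

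The sequences of miR-192-5p and miR-194-5p are shown because hairpins of both lie side by side in the genome while their shares differed in how they varied, and that of miR-215-5p because it has the seed of miR-192-5p. Capitals mark the seed, and the sequences are those of RefSeq (GRCm38.p6).
miR-192-5p: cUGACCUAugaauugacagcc
miR-194-5p: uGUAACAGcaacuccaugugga
miR-215-5p: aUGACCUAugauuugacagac
Of 1679 mature mouse miRNA names in that set, 2 had the seed of miR-192-5p, namely miR-192-5p and miR-215-5p, and 1 had the seed of miR-194-5p. miR-215-5p differs from miR-192-5p at 3 of 21 bases (C1A, A12U and C20A, counted from 1 at the 5′ end, with the base of miR-192-5p first). The counts were made from reads mapped without mismatches.

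Mature miR-194-5p can come from 2 hairpins, and a count of it does not say which hairpin it came from. Mir194-2 (chr19:6264643-6264728, plus strand, GRCm38) lies 115 bases before Mir192 (chr19:6264844-6264932, plus strand), with which it is known to share a primary transcript, and no other annotated gene overlaps either hairpin. Mir194-1 (chr1:185313319-185313385, plus strand) lies 195 bases before Mir215 (chr1:185313581-185313692, plus strand), within an intron of the antisense gene 2010103J01Rik and opposite an intron of the protein-coding gene Iars2. The hairpins are printed with the mature 5′ strand in capitals, to show that the same 22 bases stand in both miR-194 hairpins.
Mir194-2: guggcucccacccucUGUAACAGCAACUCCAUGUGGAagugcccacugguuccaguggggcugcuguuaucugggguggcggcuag
Mir192: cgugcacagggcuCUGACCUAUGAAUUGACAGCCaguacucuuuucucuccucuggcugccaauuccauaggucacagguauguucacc
Mir194-1: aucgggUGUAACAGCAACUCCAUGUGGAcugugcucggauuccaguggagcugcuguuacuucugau

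miR-192-5p was the abundant member and held about the same share of the miRNA counts in control and beads-depleted libraries. Its counts in control pools A, B and C were 2285, 3616 and 2741, or 1.114%, 1.094% and 1.102% of the miRNA counts. In beads-depleted libraries they were 19604, 22011 and 18338, or 1.018%, 1.103% and 1.006%. Beads-depleted pool B lay within the range of the control libraries and the other two lay below it, so the groups overlapped. The mean share was 1.103% ± 0.0101 in control and 1.04% ± 0.0527 in beads-depleted libraries (SD, n = 3). By mean share it was the 18th miRNA of 572 detected in control and the 18th of 837 detected in beads-depleted libraries. Its neighbours in that order held mean shares of 1.157% and 1.067% in control and of 1.139% and 0.958% in beads-depleted libraries.

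In RNase H-depleted libraries, miR-192-5p had 20, 12 and 11 counts in pools A, B and C, which is 0.980%, 0.607% and 0.917% of the miRNA counts. The shares of all 3 libraries lay below those of every control and beads-depleted library, with a mean of 0.835% ± 0.1999 (SD, n = 3). Counting error was large at this depth. The Wilson 95% interval was 0.636% to 1.51% in pool A and 0.513% to 1.64% in pool C, and both hold the control mean, whereas that of pool B, 0.348% to 1.06%, ends just below it. It ranked 21st of 154 miRNAs detected.

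miR-194-5p behaved differently from miR-192-5p, with shares in the depleted libraries that all exceeded those of the control libraries. Control pools A, B and C held 16, 31 and 19 counts, or 0.00780%, 0.00938% and 0.00764% of the miRNA counts. Beads-depleted pools held 2548, 2615 and 2683 counts, or 0.132%, 0.131% and 0.147%. The lowest beads-depleted library stood far above the highest control library. The mean share was 0.00827% ± 0.000959 in control and 0.137% ± 0.00904 in beads-depleted libraries (SD, n = 3), 16.5 times as high, and within pools the ratio of shares was 16.96, 13.98 and 19.27 in A, B and C. In raw counts miR-194-5p was 118.9 times as high after depletion with beads, while the sum of miRNA counts was 7.32 times as high and miR-192-5p 6.94 times. Its position by mean share moved from 146 of 572 in control to 60 of 837 in beads-depleted libraries. Its neighbours in control, at 0.00833% and 0.00791%, and those in beads-depleted libraries, at 0.146% and 0.135%, lay within about 1 SD of its mean.

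RNase H-depleted libraries held 2, 2 and 1 counts of miR-194-5p in pools A, B and C, which is 0.0980%, 0.101% and 0.0834% of their miRNA counts. All of these shares lay above the control shares and below the beads-depleted shares. The Wilson 95% intervals of single libraries were wide, from 0.0269% to 0.357% in pool A, from 0.0278% to 0.368% in pool B and from 0.0147% to 0.471% in pool C, so that each held the beads-depleted mean and none reached the control mean. Over the 3 libraries together, 5 of 5216 miRNA counts were miR-194-5p, which is 0.0959% with an exact 95% interval of 0.0311% to 0.224%. At the share of the summed control libraries, 0.439 counts would stand in these libraries. Intervals cover counting error only, since PCR reads without molecular identifiers are not independent molecules.

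**Figure D1:**
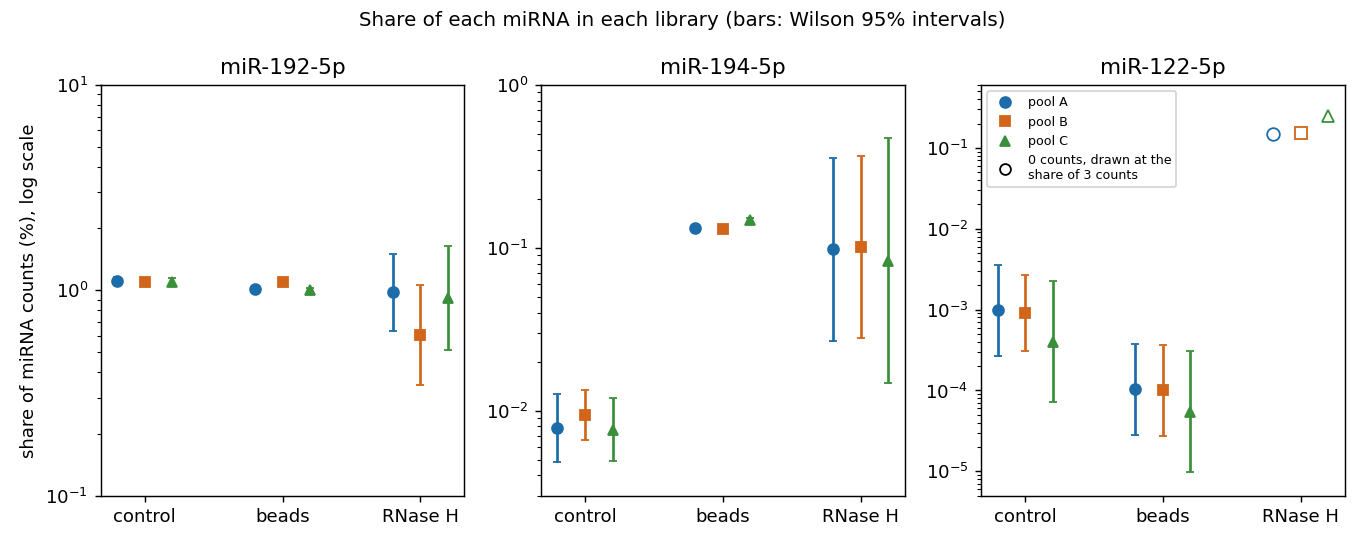
Share of miR-192-5p, miR-194-5p and miR-122-5p in the miRNA counts of each library, in percent on log axes of different range. Points are single libraries by serum pool, bars are Wilson 95% intervals, and open symbols mark RNase H-depleted libraries with 0 counts, drawn at the share of 3 counts. miR-192-5p lies between 0.607% and 1.114% in all libraries, miR-194-5p lies below 0.01% in control and near 0.1% in the depleted libraries, and miR-122-5p lies below 0.001% wherever it was counted.

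miR-122-5p, the member that is most specific for the liver, was close to absent from the counts. It had 2, 3 and 1 counts in control pools A, B and C, then 2, 2 and 1 counts in beads-depleted pools, and 0 counts in each RNase H-depleted pool, 11 counts in all. The share was 0.000402% to 0.000975% of the miRNA counts in control and 5.49e-05% to 0.000104% in beads-depleted libraries. No library had more than 3 counts, the number set here as the floor of a single library, so no fold change is given. A count of 0 in RNase H-depleted pools allows a share of up to 0.147%, 0.152% and 0.250%, far above the control share, and a change there was not detectable at this depth. Summed over libraries, it had 6 of 784557 miRNA counts in control (exact 95% interval 0.000281% to 0.00167%) and 5 of 5744589 in beads-depleted libraries (2.83e-05% to 0.000203%). At the share of the summed control libraries, 43.9 counts would stand in the beads-depleted libraries. With no filter on low counts it entered the fit between these groups and was not called. Nothing is read from this at 1 to 3 counts per library. Of 312 miRNAs with a count in all 6 control and beads-depleted libraries, miR-122-5p was the only 1 that stayed between 1 and 3 counts in each of them. Its hairpin Mir122 lies on chromosome 18 (65248861 to 65248926, plus strand, GRCm38), in an exon of the long non-coding gene AC157910.3. Whether the 3 miRNAs came from the liver was not tested, and they are named here only by their members. A loss of miR-122-5p reads in mapping without mismatches was not tested either.

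The summed share of the 3 members was nearly that of miR-192-5p, which made up 99.1% to 99.3% of the sum in control, 87.2% to 89.4% with beads and 85.7% to 91.7% with RNase H. The sum was 1.122%, 1.104% and 1.11% of the miRNA counts in control pools A, B and C. In beads-depleted pools it was 1.15%, 1.23% and 1.15%, above every control library. In RNase H-depleted pools it was 1.08%, 0.708% and 1.00%, below every control library. Between beads-depleted and control libraries the mean sum differed by 0.0670 percentage points, which is a difference of 0.129 for miR-194-5p and of -0.0610 for miR-192-5p. The direction of the sum in this comparison was thus that of the rarer member, and between RNase H-depleted and control libraries, at -0.183 percentage points, it was that of miR-192-5p.

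The ratio of miR-194-5p to miR-192-5p compares miRNAs within a library and does not depend on how libraries are scaled. It was 0.00700, 0.00857 and 0.00693 in control pools A, B and C, which is 117 to 144 counts of miR-192-5p for each count of miR-194-5p. In beads-depleted pools it was 0.130, 0.119 and 0.146, or 6.84 to 8.42 counts of miR-192-5p for each. In RNase H-depleted pools it was 0.1, 0.167 and 0.0909. No depleted library overlapped a control library, and the beads-depleted libraries lay within the range of the RNase H-depleted ones. The mean ratio was 0.00750 ± 0.000928 in control, 0.132 ± 0.0138 with beads and 0.119 ± 0.0414 with RNase H (SD, n = 3). From the summed counts, the exact 95% interval of the ratio was 0.00590 to 0.00973 in control, 0.128 to 0.134 with beads and 0.0360 to 0.293 with RNase H. For RNase H-depleted pool C, with a single count of miR-194-5p, the interval of its own ratio reached down to 0.00211 and held the control values.

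**Figure D2:**
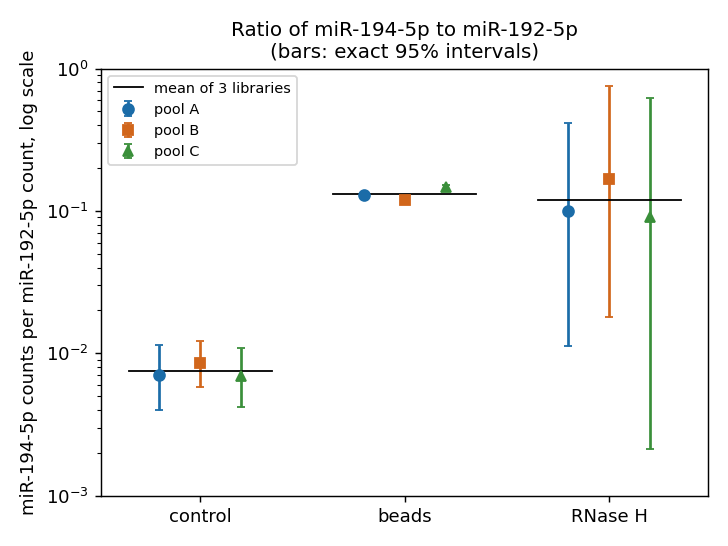
Counts of miR-194-5p for each count of miR-192-5p in each library, on a log axis. Points are single libraries by serum pool with exact 95% intervals, and lines are means of 3 libraries. The control libraries lie between 0.00693 and 0.00857, and the depleted libraries between 0.0909 and 0.167.

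The fits over all miRNAs place both members among the others. miR-122-5p did not pass the filter on low counts in any comparison. Between beads-depleted and control libraries, edgeR's log2 fold change relative to all miRNAs was 4.03 ± 0.15 SE for miR-194-5p, the 6th highest of 307 miRNAs tested, and -0.08 ± 0.067 SE for miR-192-5p, at place 188. The median over all tested miRNAs was 0.04. In this comparison 1 of the 2 members tested passed an adjusted p of 0.05, and 26.7% of all tested miRNAs passed (16.6% higher and 10.1% lower). Nothing is read from this count or from any call of a member below, since the members were chosen with these values known. With the total of all small RNA counts taken as library size, in place of the miRNA counts, the median of all miRNAs moved to 3.37, every one of 332 tested miRNAs was called higher, and the log2 fold change of miR-192-5p was 3.25 and that of miR-194-5p 7.33.

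Between RNase H-depleted and control libraries, which uses the same control libraries, the log2 fold change was 3.38 ± 0.75 SE for miR-194-5p, the 6th highest of 138 miRNAs tested, and -0.53 ± 0.22 SE for miR-192-5p. The median over all tested miRNAs was -0.19. Again 1 of the 2 members passed, beside 11.6% of all tested miRNAs (6.52% higher and 5.07% lower), or 9 higher and 7 lower. As before, the calls of members are only described. DESeq2 called 14 higher and 7 lower, and with the total of all small RNA counts as library size 4 were higher and 47 lower, with log2 fold changes of -2.01 for miR-192-5p, which was then called lower, and 1.79 for miR-194-5p, which was then no longer called. The value of miR-194-5p rests on 5 counts. With any control library left out, only 33 to 34 miRNAs passed the filter, and miR-194-5p was not among them. For miR-192-5p, the value was closer to 0 under several settings: -0.32 in DESeq2, -0.31 with median-ratio scaling and -0.04 without RNase H-depleted pool B. Without any 1 control library it was -0.20 to -0.19, with only 33 to 34 miRNAs tested. It was further from 0 without RNase H-depleted pools A and C, at -0.69 and -0.65, and with no filter on low counts, at -0.60.

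Set against each other, the depleted groups are again only described, and nothing is read from the calls of members. The log2 fold change of RNase H-depleted over beads-depleted libraries was -0.67 ± 0.61 SE for miR-194-5p and -0.49 ± 0.25 SE for miR-192-5p, against a median of -0.85 over 263 tested miRNAs. Only 154 miRNAs were detected in RNase H-depleted libraries, so many of those tested had no count there and passed the filter through the beads-depleted libraries. The medians of this comparison include these miRNAs and are no fair reference for the members. In edgeR 0 of the 2 members passed, beside 3.8% of all tested miRNAs (1.52%, or 4, higher and 2.28%, or 6, lower). At an unadjusted p under 0.05 in edgeR it was 0 of the 2 members beside 33 of the 263 miRNAs. At an adjusted p under 0.05 in DESeq2 it was 0 of the 2 beside 15 of the 263. With the serum pool as replicate block 6 miRNAs were called in place of 10. With median-ratio scaling (RLE) the values were -0.28 for miR-194-5p and -0.10 for miR-192-5p, the median of all miRNAs was -0.47, and 9 miRNAs were called higher and 1 lower. DESeq2 called 15 higher and 0 lower, and its median over all tested miRNAs was 0.97. With the total of all small RNA counts as library size both members were called lower, at -5.52 and -5.27, against a median of -5.60. With miRNA counts as library size again, the value of miR-192-5p was -0.16, -0.02 and -0.14 without beads-depleted pools A, B and C. Only 33 miRNAs were tested in each of these fits. At a depth of 1 to 2 counts per RNase H-depleted library, a moderate difference in miR-194-5p between the protocols was not detectable.

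**Figure D3:**
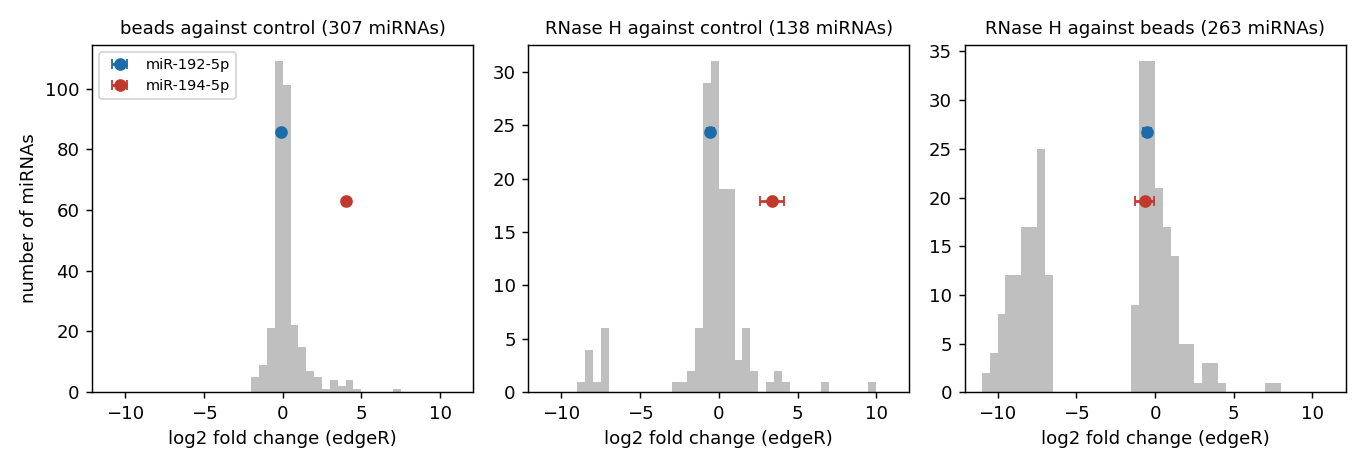
Histograms of edgeR's log2 fold change over the miRNAs tested in the 3 comparisons, with miR-192-5p and miR-194-5p drawn as points with bars of 1 SE (the height of a point has no meaning). The lowest values fall outside the bins and are not drawn, down to -11.15 in RNase H against control and -13.25 in RNase H against beads. In the latter, many other miRNAs lie far to the left of the main peak. miR-192-5p lies in the main peak of each histogram. miR-194-5p lies to the right of the main peak in both comparisons with control, at 4.03 and 3.38, and within the peak at -0.67 where the depleted groups are compared.

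Other miRNAs were compared with the members by the root mean square difference of their log2 shares over the 9 libraries, each centred on its own mean, among 66 other miRNAs with at least 10 counts in every control and beads-depleted library and a count in every RNase H-depleted library. The profile most like that of miR-192-5p was that of MIMAT0000904, with a difference of 0.137 against a median of 0.478 over the 66. Its mean shares were 1.53% in control, 1.36% with beads and 1.099% with RNase H. Next came MIMAT0000122, at 0.139. miR-194-5p, at 1.92, was not near miR-192-5p. The profile most like that of miR-194-5p was that of MIMAT0004934, with a difference of 0.776 against a median of 1.87, and the next stood at 1.42. MIMAT0004934 had mean shares of 0.00528% in control, 0.0342% with beads and 0.0773% with RNase H. In edgeR its log2 fold change was 2.68 ± 0.20 SE between beads-depleted and control libraries and 3.70 ± 0.82 SE between RNase H-depleted and control libraries. MIMAT0004934 was picked for its likeness to miR-194-5p in these same libraries, so its rise follows from the choice. These are descriptions over libraries that share their pools and differ in depth.

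**Figure D4:**
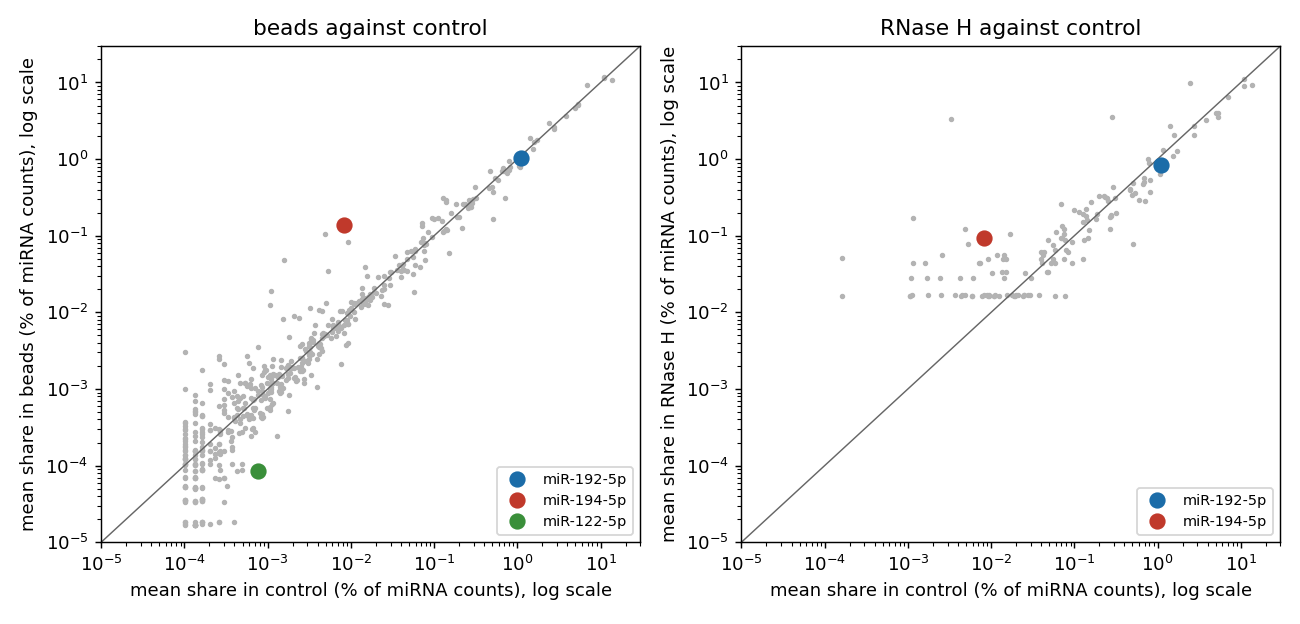
Mean share of each miRNA in beads-depleted (left, 534 miRNAs) and RNase H-depleted (right, 152 miRNAs) against control libraries, in percent of the miRNA counts on log axes, for miRNAs with a count in both groups. Grey points are other miRNAs and the line marks equal shares. miR-192-5p lies near the line in both panels, miR-194-5p above it in both, and miR-122-5p below it on the left at 1 to 3 counts per library, while it had no count to draw on the right.

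Of the miRNAs of blood cells listed for comparison, miR-16-5p (MIMAT0000527), abundant in red blood cells, was the only 1 that could be named from its identifier. It held 13.5% to 13.7% of the miRNA counts in control, 10.6% to 10.8% with beads and 6.37% to 11.3% with RNase H. In edgeR's quasi-likelihood test its log2 fold change was -0.34 ± 0.051 SE between beads-depleted and control libraries (adjusted p = 5.51e-10, lower in 3 of 3 pools) and -0.65 ± 0.21 SE between RNase H-depleted and control libraries (adjusted p = 0.0575). The other listed blood cell miRNAs were not analysed by name, so the values of miR-16-5p do not describe red blood cell miRNAs as a set. The part of miR-16-5p in the shares of the members was not tested.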

How the data were processed

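Small RNA of 9 serum libraries was counted. Adapters were trimmed by the authors (Cutadapt 1.8.1), short and low-quality reads dropped, and the others mapped without mismatches (Bowtie 1.1.2, GRCm38) and annotated by position (miRBase for miRNAs). The deposited values are raw counts, 1 file of miRNAs and 1 of other small RNAs per library (18 files). A strict match loses reads with edited or added bases.

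Shares are of the miRNA counts of a library, with Wilson 95% intervals, and the floor was 3 counts. Comparisons used edgeR 4.0.16 in R 4.3.3 (TMM, filterByExpr, quasi-likelihood test, Benjamini-Hochberg adjustment over all tested miRNAs, threshold 0.05, the 6 libraries of 2 groups), and the SE was taken as the size of the log2 fold change over the root of F. Simulated data were used to test the fits. DESeq2 1.42.0 and other settings were alternatives. Tables used Python 3.11.15 and SciPy 1.17.1. No libraries of a group agreed within sampling noise (chi-square per degree of freedom of at least 1.37).

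The members and lists were chosen with earlier results of these data known. Named miRNAs were the members, the most similar profiles, the neighbours by mean share (given without identifier) and listed companions, tissue and blood cell miRNAs. Of 36 listed names (opposite strands, miR-215, and miRNAs of liver, epithelium, red blood cells, leukocytes and platelets, and muscle), 35 had no identifier paired with them in the sources used here and were not analysed by name. Some of them may stand among the miRNAs given here by identifier only. Libraries were paired by the serum pool in the labels. Their deviations from the group means correlated between same-pool libraries with r of -0.253 to 0.249 over 170 miRNAs in beads against control, -0.0617 to 0.118 in RNase H against control, and 0.00514 to 0.143 in RNase H against beads.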

Additional observations from a re-analysis of the deposited data

How the results depend on the processing

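The ratio of miR-194-5p to miR-192-5p was rerun only from summed counts and with 1 library left out. No depleted library overlapped a control library, so neither setting could change its direction, and nothing is read from them. With the total of all small RNA counts as library size, 332 miRNAs were called between beads and control, 51 between RNase H and control and 250 between RNase H and beads. The log2 fold changes were then 3.25, -2.01 and -5.27 for miR-192-5p and 7.33, 1.79 and -5.52 for miR-194-5p, and miR-194-5p was no longer called against control after RNase H. DESeq2 called 83, 21 and 15 miRNAs and RLE scaling 93, 14 and 10. For miR-194-5p they gave 3.617 and 3.604 between RNase H and control and -0.28 with both between RNase H and beads. In the paired fit, with the serum pool as replicate block, 91, 12 and 6 miRNAs were called, against 82, 16 and 10 without it, and the log2 fold change of miR-194-5p was 4.03, 3.38 and -0.65. The block changed no call of a member, and nothing is read from such calls, since the members were chosen with these values known.

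Leaving out 1 library at a time gave 66 to 76 calls between beads and control, 4 to 14 between RNase H and control and 1 to 22 between RNase H and beads (1 without beads A or B, 22 without RNase H B). The log2 fold change of miR-192-5p ranged from -0.69 to -0.036 and from -0.70 to -0.015 in the comparisons of RNase H with control and with beads, and that of miR-194-5p from 3.38 to 3.62 in the former. Without a control or a beads library, 33 to 34 miRNAs passed the filter in these comparisons and miR-194-5p did not.

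As a share of all small RNA counts, miR-192-5p held 0.0662% in control, 0.630% with beads and 0.0172% with RNase H, miR-194-5p 0.000500%, 0.0818% and 0.00225%, the sum of the 3 members 0.0667%, 0.712% and 0.0195%, and miR-122-5p 4.49e-05% and 5.32e-05% in control and beads-depleted libraries. With the 10 most abundant other miRNAs left out of the miRNA counts, the shares were 3.39%, 3.12% and 1.86% for miR-192-5p, 0.0254%, 0.410% and 0.215% for miR-194-5p, 3.42%, 3.53% and 2.08% for the sum, and 0.00234% and 0.000258% for miR-122-5p. In both cases the counts of the members were those of the main shares, and only the denominator was another. Why the groups differ was not tested. The ratio with miR-215-5p added to miR-192-5p was not run. The depth of RNase H-depleted libraries, at most 2 counts of miR-194-5p, limits every comparison that uses them.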
